A study of Mus musculus with 6 samples.

Results

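The nuclear-encoded genes of oxidative phosphorylation were compared between islets of diabetic db/db mice and db/m controls. They were chosen by name: protein-coding genes of the table whose symbols begin as those of complex I (Nduf with a, b, c, s or v and a number), complex II (Sdha to Sdhd), complex III (Uqcr), complex IV (Cox4 to Cox8 with a, b or c after the number) or complex V (Atp5). This gave 82 of 44713 genes, namely 37 of complex I, 4 of complex II, 8 of complex III, 16 of complex IV and 17 of complex V. The rule used no expression value. By name it leaves out Ndufab1, Cox4i1, Cox4i2 and Cyc1, which encode true subunits and are described apart, and it takes in Atp5s and Atp5sl, whose products are not subunits of ATP synthase. Ndufa4 is grouped with complex I by its name, although its protein is known to belong to complex IV.

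Islet cells of the pancreas from 3 db/db and 3 db/m mice were profiled by RNA-seq of rRNA-depleted total RNA. The db/db mice carry the genotype Lepr-/- in the labels, meaning loss of the leptin receptor, which leads to obesity and diabetes, while the db/m mice are labelled wild type. The labels give the strain C57BL/6 for both groups, whereas the study's methods describe male mice on the BKS background with db/m littermates as controls, 10 weeks old and on a normal diet, with islets taken by collagenase and a density gradient. The labels name no treatment for either group. Leptin receptor deficiency affects the whole animal, so its action on islets cannot be told apart from that of obesity and high glucose.

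Oxidative phosphorylation takes place in the inner mitochondrial membrane. Complexes I and II pass electrons from NADH and succinate to ubiquinone, complex III passes them on to cytochrome c, complex IV reduces oxygen, and complex V uses the resulting proton gradient to make ATP. Most subunits are encoded in the nucleus and imported, while a core set is made from mitochondrial DNA. In β-cells the ATP made from glucose closes potassium channels and so triggers insulin release.

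Expression levels are given as CPM, read counts relative to library size after scaling by the TMM method, and groups were compared by edgeR's quasi-likelihood test over 12760 genes that passed its filter on low counts. Library totals lay between 15641797 and 20614531 reads, so that 3 reads, taken as the limit of detection, corresponded to between 0.110 and 0.241 CPM. Db/db mouse 1 and db/m mouse 1 stood apart from the others, with TMM factors of 0.605 and 1.75 against 0.919 to 1.06 in the other 4. Reads on 36 measured acinar (exocrine pancreas) marker genes made up 78.0%, 72.0% and 71.7% of all reads in db/db mice 1 to 3 and 54.4%, 67.5% and 70.1% in db/m mice 1 to 3. Reads on 19 β-cell markers, which included Ins1 and Ins2, lay between 0.198% and 0.706% in db/db mice and between 0.878% and 4.63% in db/m mice. The libraries thus held islet transcripts together with a majority of acinar transcripts, and fewer cells of a type and less RNA per cell cannot be told apart in such bulk samples. The paper, by contrast, used insulin staining to check that the isolated islets were free of acinar cells, and reports most cells as positive.

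The promoters of some members held motifs known from respiratory genes, and most of those shown were chosen because they hold a match. RefSeq promoters (GRCm38.p6, 250 bases before to 50 after a transcript start) were matched for 69 of the 82 members, with 75 promoters in all. Each was searched on both strands for the letters GCNTGCGC (NRF1), CCGGAAG (ETS factors such as GABPA), AAGATGGC (YY1), and TCAAGGTCA (ERR alpha). Factors that bind these 4 motifs are known regulators of respiratory genes. The letters TATAAA of the TATA box were searched as well. The 150 bases before the start are shown for the 3 succinate dehydrogenase genes with an entry, for Ndufa6 and Cox6a1, and for Uqcrc1, the member with the smallest p below. Capitals mark matches to the NRF1 or ETS letters on either strand.
Sdha (chr13:74350241-74350390, minus strand): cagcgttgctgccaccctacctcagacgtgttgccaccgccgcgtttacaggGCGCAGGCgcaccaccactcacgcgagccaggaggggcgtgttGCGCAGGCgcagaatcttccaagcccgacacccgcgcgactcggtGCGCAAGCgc
Sdhb (chr4:140961121-140961270, plus strand): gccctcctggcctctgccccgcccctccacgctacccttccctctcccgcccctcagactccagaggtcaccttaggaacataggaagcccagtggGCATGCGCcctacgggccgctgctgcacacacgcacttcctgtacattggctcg
Sdhd (chr9:50603850-50603999, minus strand): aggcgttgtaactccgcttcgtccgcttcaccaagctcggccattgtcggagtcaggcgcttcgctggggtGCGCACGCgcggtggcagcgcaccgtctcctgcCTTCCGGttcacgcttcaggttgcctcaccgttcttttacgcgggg
Ndufa6 (chr15:82354292-82354441, minus strand): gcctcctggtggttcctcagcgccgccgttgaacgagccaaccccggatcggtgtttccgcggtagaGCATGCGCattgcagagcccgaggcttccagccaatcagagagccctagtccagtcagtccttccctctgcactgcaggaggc
Cox6a1 (chr5:115348959-115349108, minus strand): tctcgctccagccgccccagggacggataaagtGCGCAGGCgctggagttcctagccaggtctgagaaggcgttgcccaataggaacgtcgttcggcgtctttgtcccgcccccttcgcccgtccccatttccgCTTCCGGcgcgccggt
Uqcrc1 (chr9:108936498-108936647, plus strand): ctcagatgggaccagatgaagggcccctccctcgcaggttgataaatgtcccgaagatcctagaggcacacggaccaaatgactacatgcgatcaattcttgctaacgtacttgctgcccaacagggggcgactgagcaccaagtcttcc

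In the stretches shown, Sdha held 3 matches to the NRF1 letters, and Sdhb and Ndufa6 held 1 each. Sdhd and Cox6a1 held an NRF1 and an ETS match each there, and Uqcrc1 held none. Counted over the promoter from end to end, Ndufa6, Cox6a1 and Uqcrc1 held 3 NRF1 matches each, those of Uqcrc1 all after the start. After the start, Sdhb also held an ETS match and Sdhd an ERR alpha match. Over the whole 300-base window, NRF1 letters were found in 33.3% of the members' promoters, against 19.3% of 12145 promoters of tested genes and 9.95% of all 32851 promoters. YY1 letters were found in 16.0% of the members' promoters, against 4.40% and 2.75%. ETS letters were found in 21.3%, against 17.2% and 8.86%. ERR alpha letters were rare, in 2.67% against 0.263% and 0.423%, and TATA letters were found in 10.7% against 7.13% and 13.6%. Of the 100 bases before the start alone, 20.0% of the members' promoters held NRF1 letters, against 10.4% of promoters of tested genes, so the order was kept. These shares describe letters in a window, and no binding was measured.

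Of the 82 members, 73 passed the filter on low counts. None passed an adjusted p of 0.05 (edgeR's quasi-likelihood test, Benjamini-Hochberg over all tested genes), where 0.619% of all tested genes (79 genes) did, and the smallest adjusted p of a member was 0.119. At an unadjusted p under 0.05, 7 members were higher in db/db, where the background was 5.04% of tested genes, and 1 was lower, where it was 9.89%. DESeq2 put 1 member, Uqcrc1, past the adjusted threshold (adjusted p = 0.0251), among 707 genes in all. The log2 fold change, db/db over db/m, was above 0 for 59 of 73 members and for 49.9% of all tested genes, with a median of 0.26 for members and 0.00 for all tested genes. By complex the median log2 fold change was 0.22 for complex I (34 genes), 0.13 for complex II (4 genes), 0.41 for complex III (8 genes), 0.30 for complex IV (11 genes) and 0.30 for complex V (16 genes).

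**Figure D1:**
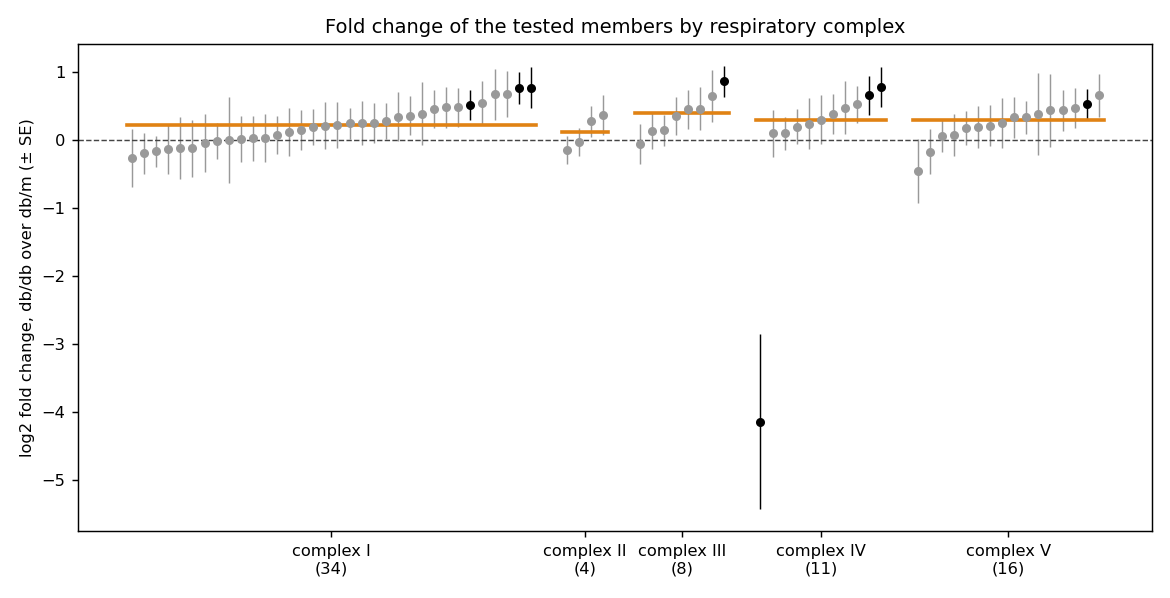
Each point is a tested member, with its log2 fold change (db/db over db/m) and standard error on the y axis, sorted within its complex; black points have an unadjusted p under 0.05, orange lines are medians per complex and the dashed line is the median of all tested genes. The medians lie between 0.13 and 0.41, and Cox6a2 at -4.14 is far below all other members.

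This median rested on db/db mouse 1. The median deviation of the members from their own mean over the 6 mice was 0.49 on the log2 scale in db/db mouse 1, -0.13 in db/db mouse 2 and 0.07 in db/db mouse 3, and -0.20, -0.22 and 0.11 in db/m mice 1 to 3. Thus db/m mouse 3 lay above 2 of the 3 db/db mice. In db/db mouse 1, 66 of 73 members were above their own mean, against 20 and 47 in the other db/db mice. Without db/db mouse 1, 42 of 73 log2 fold changes were above 0 and the median fell to 0.03. When a score of the acinar markers was added to the fit, which was highest in db/db mouse 1 and lowest in db/m mouse 1, 33 of 73 were above 0 and the median was -0.03. This score went largely with the group, so the fit with it cannot tell composition and group apart. Because the median rested on db/db mouse 1, the members were not shown to differ between db/db and db/m islets as a group.

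Before TMM scaling the order was different. The members took 0.118%, 0.132% and 0.135% of all reads in db/db mice 1 to 3 and 0.206%, 0.127% and 0.149% in db/m mice 1 to 3, so the groups overlapped. With library size in place of TMM, 10 of 73 log2 fold changes were above 0 and the members' median was -0.36, while that of all tested genes was -0.59. The difference of these medians, 0.23, was close to that under TMM (0.26). After TMM scaling the members summed to 1958, 1326 and 1469 CPM in db/db mice and to 1185, 1191 and 1536 CPM in db/m mice.

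**Figure D2:**
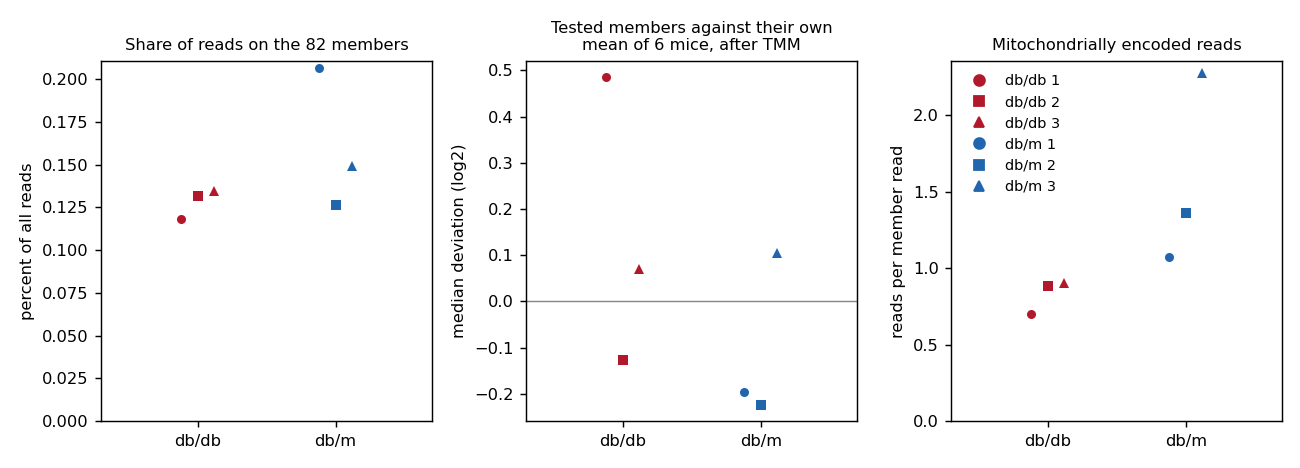
Points are single mice (red db/db, blue db/m). The left panel shows the percent of all reads on the 82 members, the middle panel the median deviation of the 73 tested members from their own mean (log2), and the right panel reads on mitochondrially encoded genes per read on members. Db/db mouse 1 has the lowest share of reads but the highest deviation after TMM (0.49), and the groups are apart only in the right panel.

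The db/db and db/m values did not overlap for 7 of the 73 tested members, all of them higher in db/db, where the background was 8.53% of tested genes, and no tested member was lower without overlap, where it was 12.6%. The untested Atp5k was lower in every db/db mouse. Of these, Ndufa10 and Ndufv1 belong to complex I. Ndufa10 (chromosome 1, 92439010-92473860, minus strand), an accessory subunit on the matrix side, was measured at 29.8, 22.7 and 22.6 CPM in db/db mice 1 to 3 and at 12.0, 14.7 and 17.3 CPM in db/m mice 1 to 3. Every db/db mouse was above every db/m mouse, with a log2 fold change of 0.77 ± 0.24 (SE, n = 3 per group; edgeR adjusted p = 0.181). Ndufv1 (chromosome 19, 4007384-4012806, minus strand) is the core subunit that binds NADH and the flavin, and it was measured at 36.5, 28.9 and 31.2 CPM in db/db and 23.2, 19.2 and 24.8 CPM in db/m mice. For Ndufv1 this gave a log2 fold change of 0.52 ± 0.22 (SE; edgeR adjusted p = 0.311). Ndufa6 (chromosome 15, 82350140-82354322, minus strand), an accessory subunit of the LYR family, had a log2 fold change of 0.77 ± 0.30 (SE; edgeR adjusted p = 0.276). It was measured at 27.4, 15.2 and 19.3 CPM in db/db and 8.70, 15.4 and 12.1 CPM in db/m mice, so db/m mouse 2 lay above db/db mouse 2. Ndufv2, the iron-sulfur partner of Ndufv1, overlapped between groups at 35.6, 15.6 and 23.8 CPM against 12.0, 14.5 and 20.2 CPM.

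The 7 core subunits of the peripheral arm, which carry the flavin and the iron-sulfur clusters, had values on both sides of 0. Of the 6 that were tested, Ndufv1 alone had an unadjusted p under 0.05, 4 log2 fold changes were positive and the median was 0.27. Ndufs7, the core subunit that was not tested, was listed at 0 reads in all 6 mice, and whether this reflects expression or the annotation and counting was not tested. Ndufs5 had between 2 and 11 reads per library. Per kilobase of transcript, Ndufb9 had the highest level in complex I, with a mean of 38.5 CPM per kb. It was measured at 39.5, 25.7 and 29.6 CPM in db/db and 17.7, 19.5 and 30.5 CPM in db/m mice, with overlap through db/m mouse 3.

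Complex II, which is also an enzyme of the citric acid cycle, had the smallest median. Sdha, the flavoprotein subunit, was measured at 44.5, 54.1 and 44.2 CPM in db/db and 54.6, 49.2 and 53.7 CPM in db/m mice (log2 fold change -0.14 ± 0.21, SE). Sdhb, the iron-sulfur subunit, was measured at 38.6, 27.6 and 37.5 CPM in db/db and 24.9, 28.6 and 32.0 CPM in db/m mice (0.28 ± 0.23, SE). Of the membrane anchors, Sdhc had a log2 fold change of 0.37 ± 0.30 (SE), with 23.4, 16.6 and 17.5 CPM in db/db and 18.9, 9.26 and 16.1 CPM in db/m mice. Sdhd, the other anchor, was measured at 18.2, 15.8 and 17.7 CPM and at 18.6, 17.5 and 16.6 CPM, respectively (-0.03 ± 0.20, SE). All 4 genes overlapped between groups, and their adjusted p (edgeR) was 0.590 or more.

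Complex III held the member with the smallest p. Uqcrc1 (chromosome 9, 108936633-108949623, plus strand), a core protein of the complex that is related to mitochondrial processing peptidases, was measured at 14.4, 11.7 and 13.7 CPM in db/db mice 1 to 3. In db/m mice 1 to 3 it was measured at 6.79, 8.04 and 6.98 CPM, so the groups were clearly apart, with a log2 fold change of 0.87 ± 0.23 (SE, n = 3 per group; edgeR unadjusted p = 0.0038 and adjusted p = 0.119). The log2 fold change of Uqcrc1 was positive under all 16 alternatives of processing, from 0.27 with library size in place of TMM to 0.97, and between 0.81 and 0.97 when each mouse was left out in turn. No stretch of 50 bases of its transcript was found elsewhere in the genome. Its unadjusted p stayed under 0.05 when the acinar score was added to the fit or both mice numbered 1 were left out, where 1 member in all had such a p, but not with library size in place of TMM (edgeR adjusted p = 0.651).

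The other core protein, Uqcrc2, was measured at 78.0, 52.1 and 49.7 CPM in db/db and 33.1, 42.8 and 55.3 CPM in db/m mice (log2 fold change 0.46 ± 0.28, SE). Uqcrh, the hinge protein that lies near cytochrome c1, was measured at 25.6, 8.85 and 14.1 CPM in db/db and 7.60, 12.1 and 11.3 CPM in db/m mice (0.65 ± 0.38, SE). Uqcrq, a small subunit, was measured at 66.6, 33.9 and 44.0 CPM and at 32.1, 26.6 and 46.2 CPM, respectively (0.46 ± 0.32, SE). In each of these 3 genes db/db mouse 1 was the highest of the 6 mice and the groups overlapped. Uqcrb had the highest level per kilobase in complex III (28.4 CPM per kb) and a log2 fold change of -0.06 ± 0.30 (SE), but 61.5% of its stretches of 50 bases occurred elsewhere, so its count is uncertain. Its values were 18.9, 12.9 and 13.0 CPM in db/db and 13.1, 11.8 and 21.6 CPM in db/m mice.

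**Figure D3:**
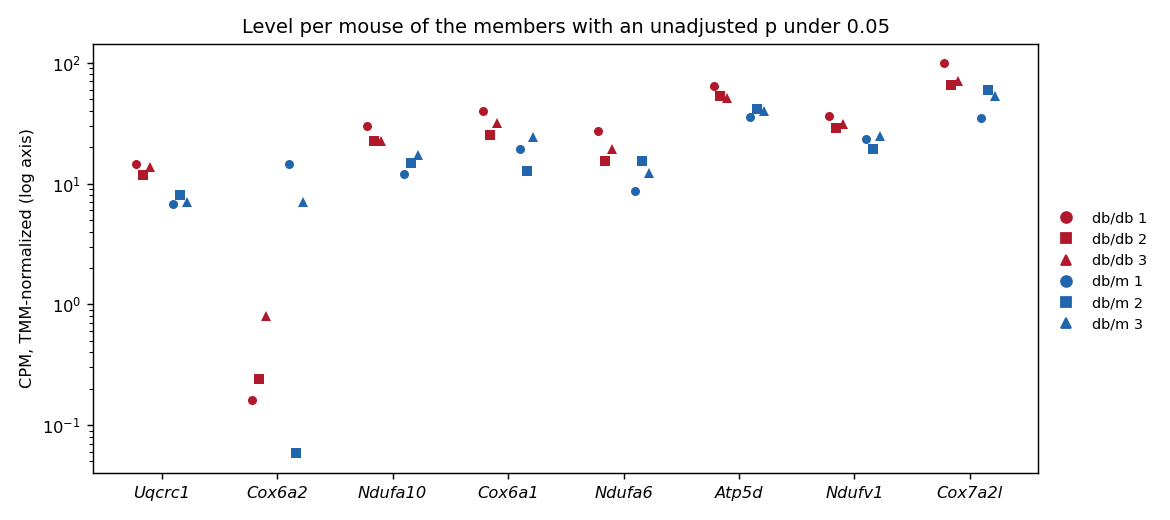
Levels in CPM (log axis) of the 8 members with an unadjusted p under 0.05, ordered by p; red points are db/db mice, blue points db/m mice and symbols mark the mouse number. Uqcrc1, Ndufa10, Cox6a1, Atp5d, Ndufv1 and Cox7a2l have groups that do not overlap, whereas Cox6a2 ranges from 0.0582 to 14.6 CPM within the db/m mice.

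In complex IV the isoforms of subunit 6a differed most. Cox6a1 (chromosome 5, 115345642-115348981, minus strand), the isoform found in most tissues, was measured at 40.2, 25.1 and 31.6 CPM in db/db and 19.5, 12.6 and 24.1 CPM in db/m mice. The groups did not overlap, though db/db mouse 2 and db/m mouse 3 were close, and the log2 fold change was 0.78 ± 0.30 (SE; edgeR adjusted p = 0.265). Cox6a2 (chromosome 7, 128205435-128206387, minus strand), the isoform known from heart and skeletal muscle, was counted at 2, 4 and 12 reads in db/db mice 1 to 3 and at 397, 1 and 130 reads in db/m mice 1 to 3. It was thus plainly present in 2 db/m mice and at or near the limit of detection in db/m mouse 2. Its log2 fold change of -4.14 ± 1.29 (SE; edgeR adjusted p = 0.180) was the largest in size among members, but the groups overlapped through db/m mouse 2. Without db/m mouse 2 the log2 fold change was -4.69 and the adjusted p (edgeR) was 0.0387. With no filter on low counts it was -4.13 with an adjusted p (edgeR) of 7.48e-06, in a setting that called 888 genes in all against 79 as reported. Cox6a2 did not pass under DESeq2 (adjusted p = 0.124) or with the acinar score (edgeR adjusted p = 0.506).

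Relative to 100 reads on Cox6a1, Cox6a2 had 0.399, 0.955 and 2.55 reads in db/db and 74.8, 0.461 and 29.2 reads in db/m mice, a ratio that no scaling of libraries can change. Of 10 markers of striated muscle, none passed the filter. The muscle list summed to between 0.482 and 1.55 CPM in the 6 mice, and Myh1, Myh2, Myh4 and Mb were at 0 reads in all of them. β-cell marker reads were highest in db/m mouse 1, as were those of Cox6a2, but db/m mouse 2 had 0.905% of its reads on β-cell markers against 0.878% in db/m mouse 3, with 1 and 130 reads on Cox6a2. The part of muscle or β-cell content in the values of Cox6a2 was not tested. Cox6a2 lies opposite Itgad, and whether the counting used strand is not given in the sources used here.

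Cox7a2l (chromosome 17, 83501918-83517330, minus strand), which helps to join complexes III and IV into supercomplexes, was measured at 98.6, 66.0 and 70.1 CPM in db/db and 34.8, 60.0 and 53.5 CPM in db/m mice. This gave Cox7a2l a log2 fold change of 0.66 ± 0.28 (SE; edgeR adjusted p = 0.318), and 55.2% of its stretches of 50 bases occurred elsewhere in the genome. Cox6b1, a subunit that faces the intermembrane space, was measured at 36.1, 22.1 and 20.5 CPM in db/db and 16.1, 17.9 and 20.6 CPM in db/m mice (0.53 ± 0.27, SE). Cox8a had the highest level per kilobase of all members, 69.0 CPM per kb, and nearly equal groups at 46.4, 35.1 and 36.4 CPM against 44.6, 31.0 and 34.1 CPM (0.10 ± 0.24, SE).

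Other isoforms of complex IV with restricted expression were at or near the limit of detection. Cox6b2, Cox7a1 and Cox7b2, forms known from testis or muscle, had at most 4 reads in any library, and Cox8b and Cox8c had 0 reads in all. Cox7a2 was measured at 28.0, 11.9 and 14.7 CPM in db/db and 13.9, 16.1 and 20.8 CPM in db/m mice, and Cox7b at 42.8, 26.8 and 22.8 CPM against 14.8, 25.0 and 38.2 CPM. Both overlapped, with log2 fold changes of 0.10 ± 0.34 and 0.25 ± 0.37 (SE). Ndufa4 was measured at 16.4, 8.55 and 11.6 CPM in db/db and 9.73, 9.61 and 13.4 CPM in db/m mice (0.16 ± 0.29, SE), while its paralogue Ndufa4l2, a gene known to respond to hypoxia, had between 0 and 7 reads.

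**Figure D4:**
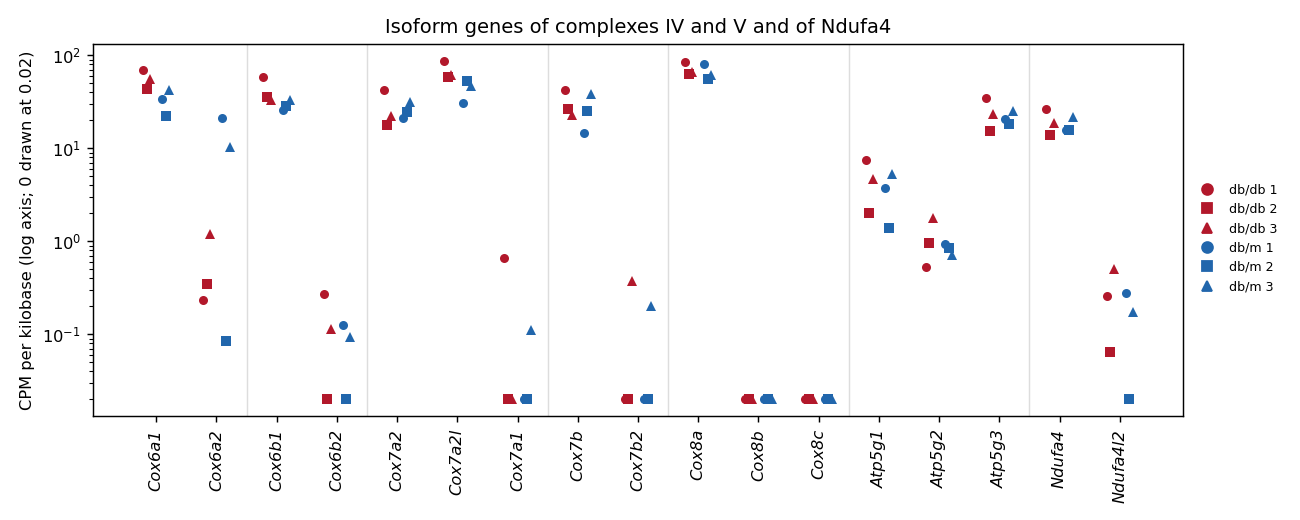
Levels per kilobase of transcript (log axis; values of 0 are drawn at 0.02) for isoform genes, with vertical lines between families; red points are db/db mice and blue points db/m mice. Cox6a2 is above 10 CPM per kb in db/m mice 1 and 3 and below 2 in the other 4 mice, and the second forms of Cox6b, Cox7b and Cox8 stay near or at 0.

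In complex V, Atp5d (chromosome 10, 80138632-80145818, plus strand), the delta subunit of the central stalk, was measured at 64.6, 53.3 and 51.3 CPM in db/db and 35.8, 41.2 and 40.0 CPM in db/m mice. The groups did not overlap, with a log2 fold change of 0.53 ± 0.22 (SE; edgeR adjusted p = 0.290). Scaled by library size instead of TMM it came to -0.063, where the median of all tested genes was -0.59. The gene lies opposite Cbarp. Atp5f1, the b subunit of the peripheral stalk, was measured at 66.7, 39.3 and 45.5 CPM in db/db and 21.0, 31.3 and 43.5 CPM in db/m mice (0.66 ± 0.32, SE). Atp5o, the subunit known as OSCP at the top of that stalk, was measured at 55.2, 33.7 and 37.3 CPM and at 23.1, 27.3 and 42.5 CPM, respectively (0.44 ± 0.30, SE). Atp5l, which encodes subunit g, did not overlap at 7.63, 5.98 and 5.72 CPM against 3.45, 5.07 and 5.41 CPM (0.47 ± 0.29, SE), but 84.0% of its stretches of 50 bases occurred elsewhere, the highest share of all members.

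The genes of the alpha and beta subunits of complex V overlapped between groups. Atp5a1, the alpha subunit, had the highest level per kilobase in complex V (62.4 CPM per kb) and was measured at 185.7, 164.5 and 161.6 CPM in db/db and 161.4, 143.9 and 183.6 CPM in db/m mice (log2 fold change 0.07 ± 0.24, SE). Atp5b, the beta subunit, was measured at 83.9, 81.2 and 74.9 CPM in db/db and 55.8, 58.9 and 112.1 CPM in db/m mice (0.08 ± 0.30, SE). Its db/m mouse 3 was above all db/db mice, and the other two db/m mice were below them. The 3 genes Atp5g1, Atp5g2 and Atp5g3 encode the same mature c subunit of the rotor ring. Per kilobase, Atp5g3 had the highest level of the 3 (22.9 CPM per kb), ahead of Atp5g1 (4.08 CPM per kb) and Atp5g2 (0.961 CPM per kb), with log2 fold changes of 0.20 ± 0.31, 0.44 ± 0.53 and 0.39 ± 0.60 (SE). Atp5g1 was measured at 35.1, 9.51 and 21.9 CPM in db/db and 17.6, 6.52 and 24.7 CPM in db/m mice, so that mouse 2 was the lowest in each group. Its level per kilobase is low partly by construction, since its longest annotated transcript of 4715 bases was used. Atp5g3 was measured at 25.1, 11.2 and 16.7 CPM and at 14.9, 13.1 and 18.1 CPM, and Atp5g2 at 0.401, 0.717 and 1.34 CPM and at 0.697, 0.641 and 0.541 CPM. Atp5k, which encodes subunit e, did not pass the filter, at 3, 5 and 4 reads in db/db and 19, 7 and 9 reads in db/m mice.

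Processed pseudogenes are common for these genes, so reads may be split or shared. Of the 82 members, 43 had under 1% of their transcript's stretches of 50 bases elsewhere in the genome, 35 had 1% to 50% and 4 had at least 50% (Atp5l, Uqcrb, Atp5h and Cox7a2l). The median log2 fold change of the tested members was 0.19, 0.34 and 0.41 in these 3 sets. Of the 8 members with an unadjusted p under 0.05, 6 were in the first set. At 100 bases, 1 member still shared at least 50% of its stretches.

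The subunits and partners left out by the naming rule had log2 fold changes on both sides of 0. Cox4i1, the main isoform of the regulatory subunit of complex IV, was measured at 94.1, 54.5 and 68.9 CPM in db/db and 46.1, 46.9 and 55.3 CPM in db/m mice (log2 fold change 0.55 ± 0.26, SE). Cyc1, which encodes cytochrome c1 of complex III, had a log2 fold change of 0.34 ± 0.24 (SE), and Ndufab1, the mitochondrial acyl carrier protein, one of 0.38 ± 0.30 (SE). Cycs, which encodes cytochrome c, had between 10 and 47 reads per library and a log2 fold change of -1.06 ± 0.64 (SE). Atpif1, an inhibitor of ATP synthase, and Usmg5, a small subunit of complex V, had values of 0.18 ± 0.32 and -0.11 ± 0.33 (SE), and Cox4i2 had at most 3 reads. None of the 6 tested genes had an unadjusted p under 0.05, and their median log2 fold change was 0.26.

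Genes encoded by mitochondrial DNA, which make the partner subunits of complexes I, III, IV and V, lay on the other side of 0. Of 13 in the table, 11 were tested, and all 11 log2 fold changes were negative, with a median of -0.75. At an unadjusted p under 0.05, 3 were lower (ND4L, ND6 and COX3), where the background was 9.89% of tested genes. None passed the adjusted threshold, where 0.619% of all tested genes did. ND6 was measured at 17.7, 25.1 and 19.4 CPM in db/db and 30.5, 31.8 and 59.8 CPM in db/m mice (log2 fold change -0.97 ± 0.31, SE; edgeR adjusted p = 0.190), with no overlap of the groups. CYTB was measured at 122.8, 83.0 and 109.2 CPM and at 104.1, 129.7 and 331.9 CPM (-0.84 ± 0.43, SE), and ND1 at 80.6, 73.7 and 82.8 CPM and at 70.8, 73.7 and 221.9 CPM (-0.63 ± 0.43, SE). The high value of db/m mouse 3 thus carried much of this difference. Without that mouse the median of the mitochondrially encoded genes, less that of all tested genes, turned from -0.75 to 0.13.

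As a ratio that needs no scaling, reads on mitochondrially encoded genes per read on members numbered 0.698, 0.881 and 0.901 in db/db mice 1 to 3. In db/m mice 1 to 3 they numbered 1.08, 1.36 and 2.28. The groups did not overlap, with or without db/m mouse 3, and the two-sided exact permutation test cannot go below p = 0.1 for 3 mice against 3. ND1, ND6 and CYTB shared no stretch of 50 bases with any place elsewhere in the genome. For COX2, COX3, ATP6, ATP8 and ND4L, by contrast, every such stretch was also found in a nuclear copy, most of it on chromosome 1. These include COX3 and ND4L, named above for an unadjusted p under 0.05. The share was 99.0% for ND3, 62.2% for ND4 and 51.1% for COX1, which held most mitochondrially encoded reads. Reads of such genes may be placed in the nuclear copy or dropped, by rules not given in the sources used here.

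Other genes of mitochondrial function are given by list, beside a background of 5.04% of tested genes higher and 9.89% lower at an unadjusted p under 0.05. Of 40 tested assembly factors of the respiratory complexes, 3 were higher and 1 lower at an unadjusted p under 0.05, with a median log2 fold change of 0.02. Of 19 enzymes of the citric acid cycle and pyruvate dehydrogenase, 1 was higher and 0 lower (median 0.16). Of 15 carriers and outer membrane proteins, 0 were higher and 1 lower (median 0.23). The latter was Slc25a4, an ADP/ATP carrier prominent in heart and muscle, at 3.21, 2.99 and 3.50 CPM in db/db and 14.8, 8.85 and 4.33 CPM in db/m mice (log2 fold change -1.53 ± 0.42, SE; edgeR adjusted p = 0.136). It passed the adjusted threshold under DESeq2 (adjusted p = 0.0303), with no filter on low counts (edgeR adjusted p = 0.00536) and without db/m mouse 3 (-1.85, edgeR adjusted p = 0.0321). Those settings called 707, 888 and 333 genes in all, against 79 as reported. Among other settings, it did not pass with library size (edgeR adjusted p = 0.171), upper-quartile factors (0.16) or the replicate block (0.426). With the acinar score it came to -0.68 (edgeR adjusted p = 0.632). The groups did not overlap, and the widely expressed carrier Slc25a5 did not pass the threshold (0.40 ± 0.37, SE).

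Of 17 tested regulators of mitochondrial biogenesis, 1 passed the adjusted threshold. Polg2, the accessory subunit of the mitochondrial DNA polymerase, fell from 12.0, 19.0 and 12.4 CPM in db/m to 1.28, 2.45 and 1.82 CPM in db/db mice (log2 fold change -2.95 ± 0.34, SE; edgeR adjusted p = 0.0103). Leaving out db/db mouse 3 raised its adjusted p to 0.073, with a log2 fold change of -2.93. The co-activators Ppargc1a and Ppargc1b (-0.25 ± 0.45 and -0.21 ± 0.34, SE), the receptor Esrra (0.55 ± 0.35, SE), Gabpa (0.31 ± 0.27, SE), Yy1 (0.20 ± 0.37, SE) and the mitochondrial transcription factor Tfam (0.08 ± 0.25, SE) did not pass. Nrf1 had between 0 and 5 reads per library and was not tested. The median log2 fold change of the list was 0.16.

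Other large groups of housekeeping genes had medians of similar size. The median log2 fold change was 0.40 for 74 mitochondrial ribosomal proteins, of which 7 were higher and 0 lower at an unadjusted p under 0.05, and 0.47 for 91 cytosolic ribosomal proteins, of which 8 were higher and 1 lower. For 35 proteasome subunits it was 0.23, with 3 higher and 0 lower. Among acinar markers 34 of 36 log2 fold changes were above 0, 2 of them past the adjusted threshold, with a median of 0.68. Among β-cell markers 18 of 18 were below 0, 6 of them past the adjusted threshold, with a median of -2.56. The part of cell composition in the members' values was not tested. The acinar score was 12.81, 11.95 and 12.22 in db/db mice 1 to 3 and 10.64, 11.73 and 11.99 in db/m mice 1 to 3. It thus went largely with the group, so the fit with this score cannot tell composition and group apart.

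**Figure D5:**
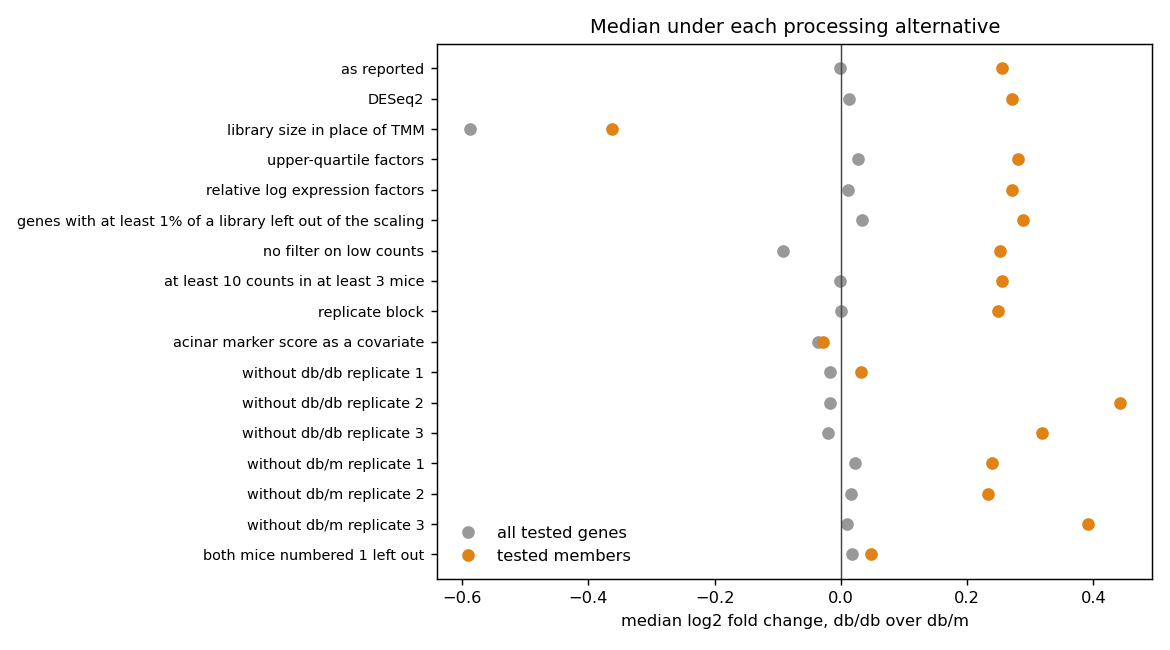
Median log2 fold change (x axis) of the tested members (orange) and of all tested genes (grey) as reported and under each processing alternative. The members' median lies above that of all tested genes in every row, but by 0.0081 with the acinar score and by 0.049 without db/db mouse 1, against 0.26 as reported.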

How the data were processed

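RNA-seq counts of islets from 3 db/db and 3 db/m mice were used. The authors trimmed the reads, mapped them to mm10 (TopHat in the study's methods, HISAT2 2.0.4 in the submitters' processing notes) and deposited the unnormalized counts for every gene symbol, 1 column for each mouse. The counter, the annotation and the use of strand are not given in the sources used here. Columns were matched to mice by the labels, with 0 left unmatched.

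The counts were fitted in R 4.3.3 with edgeR 4.0.16 (filterByExpr, TMM factors, quasi-likelihood test, no covariate), adjusted by Benjamini-Hochberg over 12760 genes (threshold 0.05). The pipeline was tested on simulated data. Standard errors were taken from the F statistic and the log2 fold change. The common biological coefficient of variation was 0.355. Replicates of a group differed by more than counting noise. Detection limits of 3 counts cover counting error only.

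Gene positions, transcript lengths (longest protein-coding transcript of GENCODE M21, a choice that lowers the level per kilobase of genes with a long minor isoform), shared stretches of 50 bases and motifs were computed with Python 3.11.15 on GRCm38. Promoters are from RefSeq. Members without a promoter entry included Atp5a1, Cox6a2, Cox6c, Cox8c, Ndufa2, Ndufa4l2, Ndufb9, Ndufs1, Sdhc, Uqcrb, Uqcrc2 and Uqcrq. Figures were drawn with matplotlib 3.10.9.

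Values per mouse are given for members past the adjusted threshold, for up to 4 members per complex with the smallest p and the one with the most reads per kilobase, for isoform families and succinate dehydrogenase, and for partner genes outside the rule. Atp5k, the mitochondrially encoded genes, Slc25a4, Slc25a5, the biogenesis regulators without a call and the genes listed at 0 were named after their values were seen. Members and gene lists were chosen with earlier results of these data known, so no list was tested as a set. Alternative settings were DESeq2 1.42.0, 4 other scalings, 2 other filters, a block for the replicate number, the acinar score as a covariate and leaving out each mouse; leaving out both mice numbered 1 was added after seeing the data. Single results withheld from the text are not reported here. The authors' circRNA data were not analysed here.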

Additional observations from a re-analysis of the deposited data

How the results depend on the processing

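No member passed the adjusted threshold (edgeR) as reported. It was passed by 1 member under DESeq2 (Uqcrc1), by 1 with no filter on low counts (Cox6a2) and by 1 without db/m mouse 2 (Cox6a2), so that the count ranged from 0 to 1 when each mouse was left out. The count over all genes was 79, and was 707 under DESeq2, 21 with library size, 52 with upper-quartile factors, 888 with no filter and 10 to 333 when each mouse was left out. The 8 members with an unadjusted p under 0.05 became 1 with library size, 1 with the acinar score, 1 without both mice numbered 1 and 3 to 10 when each mouse was left out. The replicate numbers of the labels share only a number: mice with the same number had correlations of -0.527, -0.195 and -0.323 in their deviations from the group means, and no mouse correlated best with its own number. With the replicate block, 16 genes passed in all and 4 members had an unadjusted p under 0.05.

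The members' median log2 fold change (0.26) turned to -0.36 with library size and to -0.028 with the acinar score, and lay between 0.031 and 0.44 when each mouse was left out. Less the median of all tested genes, complex I ranged from -0.013 (without db/db mouse 1) to 0.42 and complex II from 0.062 to 0.25 when each mouse was left out. Complex III came to 0.029, complex IV to -0.064 and complex V to -0.062 with the acinar score, and to 0.059, -0.043 and 0.022 without both mice numbered 1. The mitochondrially encoded genes ranged from -0.97 to 0.13 when each mouse was left out, and came to -1.14 with the acinar score.

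With library size, which moved all tested genes to a median of -0.59, the sign turned for Atp5a1 (-0.53), Atp5d (-0.063), Atp5g1 (-0.28), Atp5g2 (-0.15), Atp5g3 (-0.46), Atp5l (-0.079), Atp5o (-0.13), Cox6b1 (-0.10), Cox7a2 (-0.55), Cox7b (-0.29), Cox8a (-0.58), Ndufa4 (-0.47), Ndufb9 (-0.088), Ndufv1 (-0.10), Sdhb (-0.30), Sdhc (-0.33), Uqcrc2 (-0.12), Uqcrq (-0.18), Cox4i1 (-0.080), Cyc1 (-0.24), Ndufab1 (-0.22) and Atpif1 (-0.48). With the acinar score it turned for Atp5a1 (-0.028), Atp5g1 (-0.093), Atp5g3 (-0.21), Atp5o (-0.10), Cox7a2 (-0.54), Cox7b (-0.50), Ndufa4 (-0.27), Uqcrc2 (-0.034), Uqcrh (-0.15) and Atpif1 (-0.065). Without both mice numbered 1 it turned for Atp5g3 (-0.12), Cox7a2 (-0.43), Cox7b (-0.31), Ndufa4 (-0.15) and Sdhd (0.020), and with abundant genes left out of the scaling for Sdhd (0.0072). Leaving out each mouse gave both signs for Atp5g1 (-0.052 to 0.88), Atp5g2 (-0.14 to 0.71), Atp5g3 (-0.13 to 0.45), Cox7a2 (-0.34 to 0.34), Cox7b (-0.061 to 0.65), Cox8a (-0.023 to 0.30), Ndufa4 (-0.11 to 0.36), Sdhd (-0.059 to 0.042), Uqcrb (-0.25 to 0.27), Atpif1 (-0.027 to 0.43), Usmg5 (-0.35 to 0.21) and ND1 (-0.87 to 0.14). The causes were not tested. At or under 3 reads, as for Cox6a2 in db/db mouse 1 and db/m mouse 2, depth limits what can be shown.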
